A study of Rattus norvegicus with 8 samples.

Results

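Rgcc (regulator of cell cycle, also called response gene to complement 32, ENSRNOG00000042960) was followed across the cells of contused rat spinal cord. It is 1 of the 32623 genes counted in the series, and it was chosen by its counts in these libraries, for a large graded rise with injury in macrophages. Its values by injury group, cell type and macrophage state are therefore given as a description, without tests. Rgcc encodes a small protein that was first isolated from rat oligodendrocytes exposed to activated complement. The protein is known to bind Cdk1 and Plk1, kinases that drive entry into and passage through mitosis, and its gene is known as a target of TGF-beta/Smad signalling and of p53. In injured cord, resident microglia and macrophages that arise from blood monocytes take up dead cells and myelin, and both carry receptors for complement fragments.

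Single cells were taken from the spinal cords of female Wistar rats, 8 weeks of age, 7 days after surgery, and sequenced with 10x Genomics 3′ libraries. A 10 g weight was dropped on the exposed cord at T9 from 12.5 mm (mild), 25 mm (moderate) or 50 mm (severe), and the sham group had the laminectomy without the drop. All groups therefore shared the opened vertebra, and all cells came from 10 mm of cord centred on that level. Each group had 2 libraries, so the spread of a group rests on 2 values, and the labels do not say which libraries were prepared together.

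The libraries held between 31482153 and 131045446 unique molecular identifiers (UMIs, each marking 1 captured RNA molecule), and 55449 of the 68658 deposited cells passed quality control. Cells were assigned to a type by marker genes, of which Rgcc is none. The macrophage/microglia gate took 28613 cells, between 732 in sham replicate 1 and 7402 in moderate replicate 1, and all 14 of its markers were detected in every library. Sham replicate 1 stood apart: 52.9% of its kept cells were gated as neutrophils, against 1 cell in sham replicate 2. Its gated macrophages also carried more RNA of neutrophil markers, with a summed level of 7218 UMIs per 1000000 UMIs (CPM) over 12 markers, against 222 CPM in sham replicate 2 and 845 to 2103 CPM in the injured libraries. The part of this RNA in the values below was not tested. Pairs of libraries shared 5 to 40 cell barcodes, at most 0.450% of the smaller library.

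The window from 250 bases before to 50 bases after the start of Rgcc is shown because complement, TGF-beta/Smad and p53 genes are compared with it below. It lies at chr15:61084359-61084658 on the minus strand of assembly GRCr8 (RefSeq), a later build than the Rnor_6.0 of the counts. Capitals mark the letters of the Smad box, CAGAC on either strand.
Rgcc promoter: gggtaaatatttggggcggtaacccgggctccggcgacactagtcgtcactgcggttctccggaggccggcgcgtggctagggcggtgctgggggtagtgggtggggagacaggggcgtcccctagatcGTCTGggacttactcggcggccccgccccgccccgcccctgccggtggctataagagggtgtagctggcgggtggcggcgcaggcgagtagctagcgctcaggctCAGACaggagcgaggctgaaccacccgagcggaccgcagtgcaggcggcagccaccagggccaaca
The window held 2 Smad boxes, and 50.1% of the 33469 promoter windows of the same length held at least 1. It also held 5 matches of the GC box (GGGCGG on either strand, in 33.1% of windows) and 1 match of TATAA (either strand, in 26.2% of windows), and matches of different motifs did not overlap. RefSeq also lists a gene named Rgccl1 in that assembly, and reads that the 2 genes may share were not analysed here.

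Among macrophages/microglia, Rgcc was low in sham cord and higher in every injured library. The level, over all UMIs in the gated macrophages/microglia of a library, was 11.3 and 24.8 CPM in sham replicates 1 and 2. It was 366 and 184 CPM in the mild replicates. It was 326 and 1054 CPM in the moderate replicates, and 843 and 774 CPM in the severe replicates. Both sham libraries lay below all 6 injured libraries, and both mild libraries lay below both severe libraries. The moderate libraries did not sit between them: moderate replicate 1 was below mild replicate 1, and moderate replicate 2 was the highest of all. With TMM scaling moderate replicate 2, at 976 CPM, lay below severe replicates 1 and 2, at 1031 and 1001 CPM, while moderate replicate 1 stayed below mild replicate 1 (308 against 348 CPM). Group means were 18.1 ± 9.49 CPM in sham, 275 ± 129 in mild, 690 ± 514 in moderate and 809 ± 48.6 in severe cord (SD, n = 2 each), which is 15.2-fold, 38.2-fold and 44.8-fold the sham mean. The folds depended on the sham library, and were 24.3, 60.9 and 71.3 over sham replicate 1 alone and 11.1, 27.9 and 32.7 over sham replicate 2 alone. In the fit across 13364 genes, with scaling by TMM, the log2 fold changes were 3.95 (SE 0.70), 5.24 (SE 0.74) and 5.90 (SE 0.76). Ordered by rise, Rgcc was number 107, 80 and 54 of these genes in mild, moderate and severe cord.

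**Figure D1:**
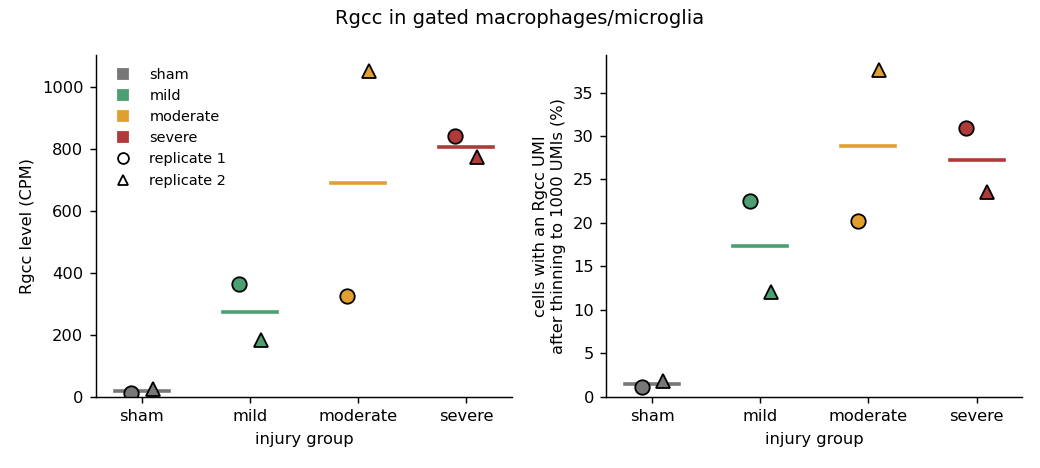
Rgcc in gated macrophages/microglia by injury group: the left panel plots CPM and the right panel the percentage of cells with at least 1 Rgcc UMI after each cell was thinned to 1000 UMIs. Points are libraries and bars are means of 2 libraries. Both sham points lie below all injured points. In both panels the 2 moderate points, 326 and 1054 CPM on the left, lie on either side of mild replicate 1 and both severe points. Mild replicate 2 lies below both moderate points.

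More macrophages carried Rgcc after injury, and at full depth those that did held more Rgcc UMIs on average. At full depth 4.10% and 8.67% of macrophages/microglia in the sham libraries had an Rgcc UMI. These shares were 49.6% and 35.5% in mild, 48.1% and 71.2% in moderate, and 60.5% and 40.3% in severe cord. Cells with the transcript held a mean of 2.10 and 2.97 Rgcc UMIs in sham, 9.21 and 6.34 in mild, 6.32 and 17.9 in moderate, and 19.7 and 29.6 in severe replicates. Severe replicate 2 thus had a smaller share of cells with Rgcc than mild replicate 1 but over 3 times as many molecules per such cell, and single cells there reached 305 UMIs. These counts per cell were not thinned. Macrophages/microglia had a median of 4449.5 and 9600 UMIs in sham replicates, 10726 in mild replicate 1 and 16223 in severe replicate 2. The part of depth in the counts per cell was not tested. Thinned to 1000 UMIs per cell, so that depth was equal, the shares were 1.13% and 1.82% in sham, 22.6% and 12.04% in mild, 20.2% and 37.5% in moderate, and 30.9% and 23.5% in severe cord. Thinning left out 13 to 519 cells per library that were too shallow.

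Free RNA in droplets sets a background for such shares. Erythroid cells, which should lack the transcript, had an Rgcc UMI in 4.26% of 987 cells in severe replicate 2, at a median of 7319 UMIs per cell, against 40.3% of macrophages/microglia at a median of 16223 UMIs. After thinning these shares were 0.862% and 23.5%. In moderate replicate 2, 47.5% of 139 oligodendrocytes had an Rgcc UMI at a median of 15678 UMIs, and 6.57% after thinning, which was the highest thinned share among the oligodendrocytes of the 8 libraries. Neutrophils of moderate replicate 2 stood higher, with a thinned share of 22.2% of 234 cells, beside 37.5% of macrophages/microglia. In the other injured libraries the thinned neutrophil share ran from 0% (17 cells, moderate replicate 1) to 6.98% (43 cells, mild replicate 2). The part of free RNA in the neutrophil shares was not tested. In sham replicate 1 the macrophage level of 11.3 CPM stood beside 7.73 CPM in 107 erythroid cells and 1.05 CPM in 1432 oligodendrocytes. In sham replicate 2 the level of 24.8 CPM stood beside 0 Rgcc UMIs in 36 oligodendrocytes, which allows up to 6.87 CPM (3 UMIs). The gene was first isolated from oligodendrocytes, so their counts may include their own transcript as well as free RNA. The part of each was not tested.

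Macrophages/microglia held most of the Rgcc UMIs among the kept cells of the injured libraries. Cells of the cord that were not recovered are not counted in these shares. They contributed between 87.8% and 95.7% of all Rgcc UMIs in the 6 injured libraries, while making up 33.9% to 74.0% of the cells. The share of cells leaves out that cells differ in depth. Per UMI, the level over all kept cells was 277 and 140 CPM in mild, 277 and 742 in moderate, and 483 and 544 CPM in severe replicates. The macrophage/microglia level was above it in each of these libraries. In sham replicate 1 macrophages/microglia contributed 3.90% of the Rgcc UMIs, and in sham replicate 2, where they were 89.9% of cells, 58.0%. Endothelial cells carried the transcript without injury. Their level was 748 and 846 CPM in the sham libraries, 953 CPM in mild replicate 2, and 409 and 392 CPM in the severe replicates, with 20 to 166 cells each and fewer than 10 in the other 3 libraries. Both sham libraries lay above both severe libraries, the reverse of the order in macrophages/microglia, while mild replicate 2 lay above both sham libraries. T cells/NK cells had 55.6 CPM in sham replicate 1 and 261 to 512 CPM in the 6 injured libraries. Oligodendrocyte precursors, the progenitors of myelinating cells, had 228 and 204 CPM in sham and 72.0 to 174 CPM in injured cord, all below sham.

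Over libraries with at least 20 cells of a type, the mean level was 670 ± 256 CPM in endothelial cells (SD, n = 5), 448 ± 395 in macrophages/microglia (n = 8), 327 ± 150 in T cells/NK cells (n = 7) and 138 ± 56.3 in oligodendrocyte precursors (n = 8). The libraries of the first 3 types overlapped, with 392 to 953, 11.3 to 1054 and 55.6 to 512 CPM in the same order. Neutrophils followed with 102 ± 119 CPM (n = 7), from 5.87 CPM in sham replicate 1 to 357 CPM in moderate replicate 2. The neutrophils of moderate replicate 2 were shallow, with a median of 880 UMIs, and 23.8% of 753 had an Rgcc UMI. Dendritic cells (70.2 CPM) and oligodendrocytes (41.6 CPM) also had their highest level in that library. Fibroblasts had 50.2 ± 33.0 CPM (n = 7) and dendritic cells 20.5 ± 27.9 CPM (n = 5). Oligodendrocytes, the cells from which the gene was first isolated, had 12.3 ± 15.2 CPM (n = 8) and erythroid cells 4.71 ± 4.14 CPM (n = 3). In oligodendrocytes both sham libraries also lay lowest. However, sham replicate 2 had 0 Rgcc UMIs in 36 oligodendrocytes, which allows up to 6.87 CPM (3 UMIs). That is above the 2.27 and 6.35 CPM of the severe replicates, so its order against them cannot be read. In neutrophils, B cells and fibroblasts only 1 sham library, sham replicate 1, had at least 20 cells, and it lay lowest. For B cells it stood beside 2 severe libraries only. Sham fibroblasts, at 7.53 CPM, were close to the 8.62 CPM of mild replicate 2. The part of free RNA in the levels of these types was not tested. Endothelial RNA within the macrophage gate was low and had no common order with Rgcc. The summed level of 10 endothelial markers was 74.8 and 35.8 CPM in sham and 44.5 to 68.7 CPM in injured libraries.

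**Figure D2:**
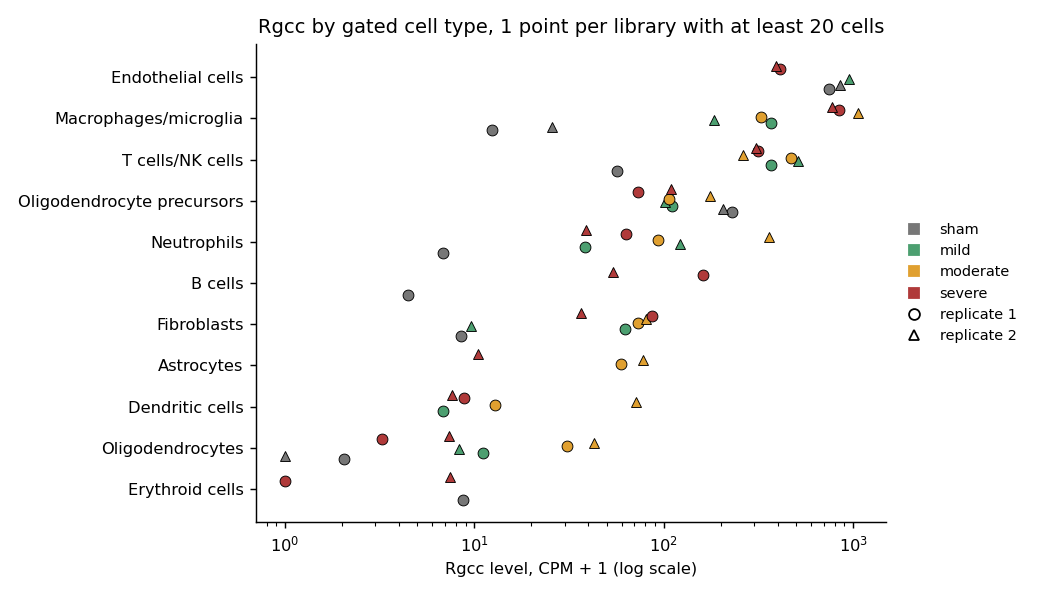
Rgcc level by gated cell type, as CPM + 1 on a log axis, with 1 point for each library in which the type had 20 cells or more. Both sham points lie lowest in macrophages/microglia and oligodendrocytes, and highest in oligodendrocyte precursors. The oligodendrocyte point of sham replicate 2, 0 UMIs in 36 cells, allows up to 6.87 CPM, which is above both severe points. In T cells/NK cells, neutrophils, B cells and fibroblasts the only sham point, of sham replicate 1, lies lowest. Endothelial cells range from 392 to 953 CPM.

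Within macrophages/microglia, Rgcc marked the cells with little C1q. C1qa, C1qb and C1qc encode the chains of the first component of the classical complement pathway, which microglia and mature tissue macrophages make. Cells were called C1q-high at 20 or more UMIs of the 3 genes per 10000. C1q-low cells had 50.1 and 350 CPM of Rgcc in the sham replicates, 650 and 434 in mild, 620 and 1828 in moderate, and 1140 and 1369 in severe cord. C1q-high cells of the same libraries had 4.64 and 16.8 CPM in sham, 36.5 and 32.8 in mild, 90.6 and 181 in moderate, and 155 and 122 in severe cord. C1q-low cells were higher in 8 of 8 libraries, by 6.84-fold to 20.8-fold. The mean difference, high minus low, was -3.46 ± 0.55 on the scale of log2(CPM + 1) (SD, n = 8 libraries).

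Both the number of C1q-low cells and their Rgcc level went up with injury. C1q-low cells made up 15.4% and 2.43% of macrophages/microglia in the sham libraries, which is 113 and 51 cells, and 37.1% to 64.2% in the injured libraries. They held 84.6% to 95.4% of the macrophage Rgcc UMIs after injury. When every library was given the same mix, 58.8% C1q-high cells, which is the mean over libraries, the mean number of Rgcc UMIs per 10000 was 0.198 and 1.24 in sham, 2.93 and 2.12 in mild, 3.05 and 8.70 in moderate, and 5.26 and 5.65 in severe replicates. Both sham libraries stayed below all injured ones. The fold over the sham mean was 3.50, 8.15 and 7.57 at this fixed mix, against 19.5, 45.5 and 42.1 with the mix of each library. These fixed-mix folds rest on few C1q-low sham cells: over sham replicate 2 alone they were 2.03, 4.72 and 4.38, and over sham replicate 1 alone 12.8, 29.7 and 27.6. The fixed mix was computed after the levels had been seen. Among C1q-high cells alone, the injured group means were 3.24-fold, 12.7-fold and 13.0-fold the sham mean (7.47, 29.3 and 29.9 over sham replicate 1 alone, and 2.07, 8.09 and 8.27 over sham replicate 2 alone). Their injured levels of 32.8 to 181 CPM stood above those of oligodendrocytes (2.27 to 41.6 CPM) within each injured library. Neutrophils, however, lay above the C1q-high cells in the mild (37.4 and 121 CPM) and moderate replicates (92.7 and 357 CPM). They lay below them in the severe replicates (62.1 and 38.0 CPM). The part of free RNA in the C1q-high levels was not tested.

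**Figure D3:**
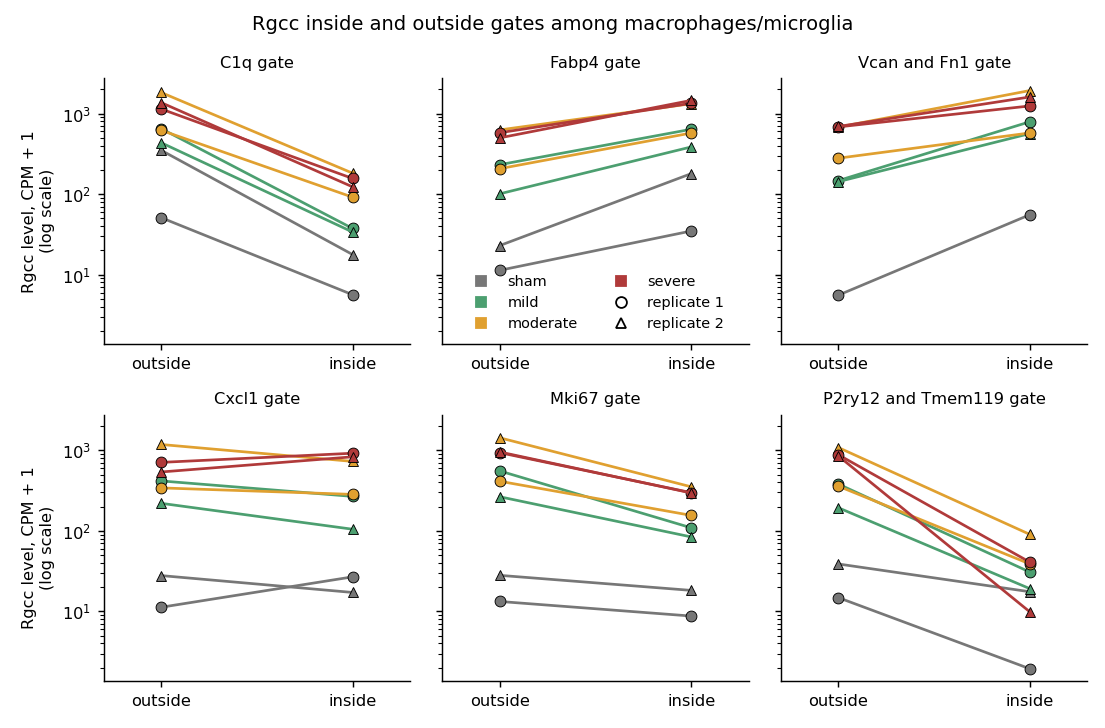
Rgcc level outside and inside 6 marker gates among macrophages/microglia, as CPM + 1 on a log axis, with 1 line per library that held at least 20 cells on each side. Every line falls into the C1q, Mki67 and P2ry12 and Tmem119 gates and rises into the Fabp4 and Vcan and Fn1 gates, and the lines of the Cxcl1 gate run both ways.

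Cells with the microglial genes P2ry12, a purinergic receptor, and Tmem119, a membrane protein, held little Rgcc. At 2 or more UMIs of both genes together per 10000, they had 0.937 and 16.5 CPM in sham, 29.7 and 18.1 in mild, 37.7 and 89.1 in moderate, and 39.8 and 8.83 in severe replicates. The value in severe replicate 2 was near the 6.35 CPM of its oligodendrocytes. Every library was lower inside the gate, and the difference averaged -3.59 ± 1.48 on the log2(CPM + 1) scale (n = 8). The gate covered 63.5% of macrophages/microglia in sham replicate 2 but 16.9% in sham replicate 1, and 2.57% to 10.7% after injury. Almost all cells in this gate were also C1q-high. Among C1q-high cells alone, levels inside against outside it were 0.938 against 5.72 and 16.5 against 17.2 CPM in sham replicates. In mild replicates they were 26.4 against 37.4 and 9.66 against 34.7 CPM. In moderate replicates they were 34.9 against 102 and 87.6 against 186 CPM. In severe replicates they were 39.8 against 174 and 8.83 against 147 CPM.

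Cells that expressed Fabp4, a fatty acid-binding protein of lipid-handling macrophages, held more Rgcc than the others. With the gate at 5 UMIs per 10000, Fabp4 cells had 33.9 and 179 CPM in sham, 637 and 385 in mild, 573 and 1324 in moderate, and 1341 and 1457 in severe replicates. The others had 10.3 and 22.0, 231 and 99.9, 206 and 626, and 577 and 498 CPM in the same order. Fabp4 cells were higher in 8 of 8 libraries, by 1.66 ± 0.59 on the log2(CPM + 1) scale. After injury they held 54.2% to 77.0% of the macrophage Rgcc UMIs and made up 23.4% to 57.5% of macrophages/microglia. Both upper values are from moderate replicate 2. The sham gates held only 26 and 27 cells. Cells with the matrix genes Vcan and Fn1 together at 5 or more UMIs per 10000, a pattern of recently arrived monocytes, were higher in 7 of 7 libraries, by 1.77 ± 0.88. Their levels ran from 54.6 CPM in sham replicate 1 to 1931 CPM in moderate replicate 2. Among C1q-low cells alone, levels with against without Vcan and Fn1 were 795 against 407 and 578 against 386 CPM in mild replicates. They were 587 against 637 CPM in moderate replicate 1, where the order turned, and 1982 against 1648 CPM in moderate replicate 2. In severe replicates they were 1260 against 1061 and 1627 against 1317 CPM.

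Cells with Mki67, the proliferation marker Ki-67, held less Rgcc. With at least 1 Mki67 UMI the levels were 108 and 83.0 CPM in mild, 155 and 351 in moderate, and 297 and 294 in severe replicates. Without it they were 553 and 264, 411 and 1427, and 933 and 951 CPM. Every library was lower inside the gate (mean difference -1.50 ± 0.62, n = 8), although these cells were deeper in every library, with a median of 10596 to 22065 UMIs against 3260 to 14582. In the sham libraries the levels were 7.75 and 17.2 CPM with and 12.3 and 27.0 CPM without Mki67.

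The neutrophil-attracting chemokine Cxcl1 had no single direction. Cells with 5 or more Cxcl1 UMIs per 10000 were higher in Rgcc in 3 of 8 libraries, sham replicate 1 and both severe replicates, and lower in the other 5. The mean difference was -0.14 ± 0.81 (SD, n = 8), so it was smaller than the spread between libraries. In severe cord, where 61.6% and 75.3% of macrophages/microglia passed this gate, Cxcl1 cells had 917 and 829 CPM against 706 and 537 CPM in the others. In moderate cord they had 282 and 726 CPM against 340 and 1179 CPM.

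The C1q and Fabp4 gates were then crossed. Among C1q-low cells, Fabp4 made a small difference. The levels with and without Fabp4 were 728 and 563 CPM in mild replicate 1, and 465 and 388 CPM in mild replicate 2. They were 673 and 548 CPM in moderate replicate 1 and 1824 and 1841 CPM in moderate replicate 2, where the order turned. They were 1403 and 904 CPM in severe replicate 1 and 1609 and 1147 CPM in severe replicate 2. Among C1q-high cells, Fabp4 cells had 93.8 against 29.9 CPM in mild replicate 1, 122 against 21.6 in mild replicate 2, 225 against 70.1 in moderate replicate 1, 275 against 113 in moderate replicate 2 and 426 against 96.6 CPM in severe replicate 2. C1q-low cells without Fabp4 were above C1q-high cells with Fabp4 in each of these 5 libraries.

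**Figure D4:**
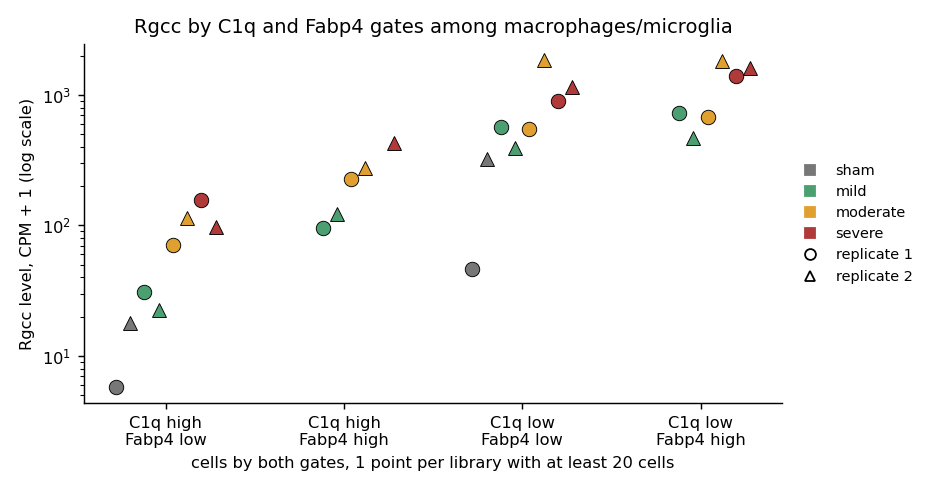
Rgcc level in macrophages/microglia split by the C1q and Fabp4 gates together, as CPM + 1 on a log axis, with 1 point per library that held at least 20 cells. Within each injured library both C1q-low classes, 388 CPM or higher, lie above the C1q-high classes plotted for that library; severe replicate 1 had too few C1q-high cells with Fabp4 for a point.

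Cells with and without Rgcc were also compared within libraries across 2331 genes with a mean of at least 50 CPM in macrophages/microglia. Each cell was thinned to 1000 UMIs first. Sham replicate 1 was left out because only 7 of its cells kept an Rgcc UMI, and the other 7 libraries had 36 to 1418 such cells. Differences are medians over 7 libraries on the scale of log2(CPM + 10). The 10 largest were these. Apoc1, an apolipoprotein, was higher in Rgcc cells by 1.62 (range 1.24 to 1.72), Fabp4 by 1.26 and Fabp5, a further fatty acid-binding protein, by 1.23. Hsd11b1, the enzyme that regenerates active glucocorticoid, was higher by 1.53, and Spp1, the secreted protein osteopontin, by 1.41. Serpinb6a, an intracellular protease inhibitor, was higher by 1.28, and the calcium-binding S100a11 by 1.28. AABR07030791.1 was higher by 1.27, the nucleoside transporter Slc28a2 by 1.16 and RGD1559482 by 1.16. All 10 were higher in 7 of 7 libraries, as the choice required. Over all 2331 genes the median difference was -0.08, and 233 genes were higher in every library.

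At the other end were the C1q chains, with differences of -2.97 (C1qa), -2.83 (C1qb) and -2.63 (C1qc). Sparc, a matrix protein of microglia, differed by -2.51 and the Fc receptor Fcgr3a by -2.46. Ch25h, which makes an oxysterol, differed by -2.34, Anxa3 by -2.19 and the protease inhibitor Cst3 by -2.19. Cenpf, a centromere protein of dividing cells, differed by -2.09, and the G1 cyclin Ccnd1 by -1.995. These genes were named at the low end by the same ranking, after their values had been seen. Most other markers of the macrophage/microglia gate were also lower in Rgcc cells. Csf1r, the receptor of the macrophage growth factor, was lower in 7 of 7 libraries, with a difference of -1.26. Cx3cr1 differed by -1.63, Adgre1 by -1.19, Ms4a7 by -0.71, Mrc1 by -0.52 and Aif1 by -0.47. Ctss (-0.25), Fcgr1a (-0.13) and Trem2 (-0.11) differed less. Cd68, a lysosomal protein, went the other way and was higher in 7 of 7 libraries, by 0.58. Lgmn differed by 0.09 and was higher in 4 of 7. Of the neutrophil markers, Slpi was higher in 7 of 7 libraries, by 1.02, while S100a8 and S100a9 differed by 0.19 and -0.31 and Cxcr2 had no UMI in Rgcc cells. The endothelial markers were low and had no single direction. Cldn5 was at 0.381 CPM in Rgcc cells and 0.574 CPM in the others, and Egfl7 at 2.89 and 6.80 CPM. Tie1 went the other way, at 35.4 and 28.7 CPM, and was higher in 4 of 7 libraries. Cd93 did so too, at 11.8 and 8.48 CPM, and was higher in 5 of 7. The part of endothelial RNA in Rgcc cells was not tested.

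**Figure D5:**
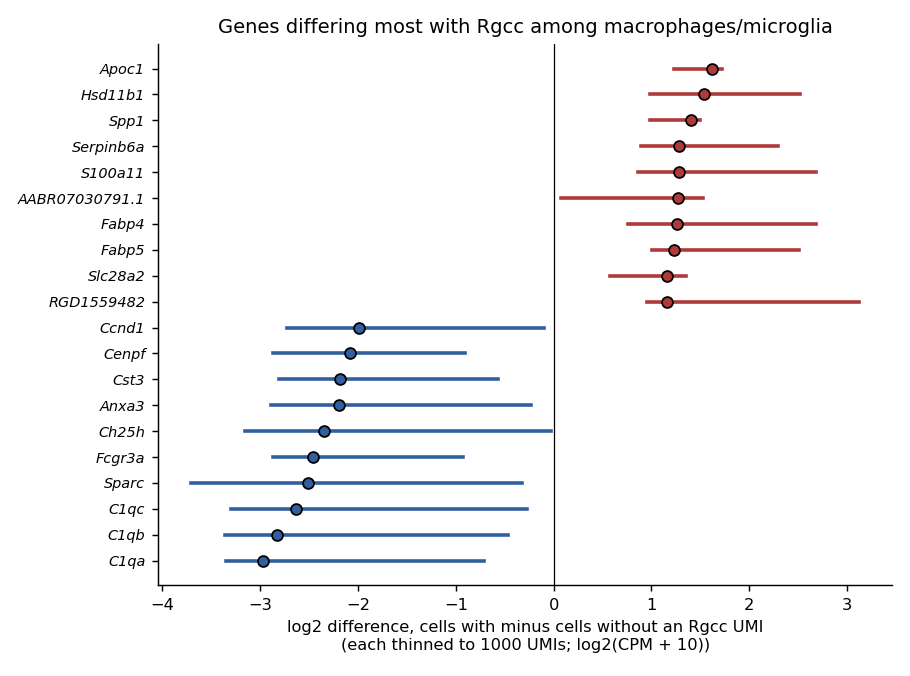
The 10 genes with the largest positive and the 10 with the largest negative difference between macrophages/microglia with and without an Rgcc UMI. Points are medians over 7 libraries of the difference in log2(CPM + 10) after thinning each cell to 1000 UMIs, and lines run from the lowest to the highest library, from -2.97 for C1qa to 1.62 for Apoc1 in the medians.

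Likeness to Rgcc was ranked among the 2331 genes with a mean of at least 50 CPM in macrophages/microglia. By pattern over the 8 libraries, the most alike in macrophages/microglia were Pla2g7 and Cxcr4. Pla2g7 encodes the acetylhydrolase of platelet-activating factor, and Cxcr4 is the receptor of the chemokine Cxcl12. Pearson's r of log2(CPM + 10) was 0.97 for both over 8 libraries, which share 4 injury groups, and Spearman's rho was 0.95 and 0.90. Pla2g7 had 116 and 93.5 CPM in sham and 294 to 532 CPM in injured libraries. Cxcr4 had 14.6 and 8.19 CPM in sham, 152 and 102 in mild, 147 and 194 in moderate, and 327 and 261 CPM in severe cord. The next were Cib1, Hagh, Tmem14c, Cd8a, Acp5, Atp6v1f, Ninj1 and Cnppd1, with r from 0.95 down to 0.93. Acp5 is the tartrate-resistant acid phosphatase of osteoclasts and macrophages, and Cd8a, best known from T cells, had 31.3 and 29.2 CPM in sham and 274 to 465 CPM in injured macrophages/microglia. The same 2331 genes were ranked over 69 points of library and cell type. Genes low in macrophages/microglia were thus left out, also where other cell types express them. The most alike were the ETS factor Elk3 (r = 0.68), the integrin Itga6 (0.61), the apolipoprotein Apoe (0.60) and Capg (0.59). They were followed by Orai1, Abracl, Chic2, Cd8a, Anxa6 and Il4r, with r between 0.58 and 0.54. Points of a library share its depth and free RNA.

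Genes linked to Rgcc by its known roles were then read from the fit across all genes in macrophages/microglia, by edgeR's quasi-likelihood test with Benjamini-Hochberg adjustment at 0.05. Of 13364 genes tested, 6.93% were called in mild (3.85% higher, 3.08% lower), 2.45% in moderate (1.76% higher, 0.696% lower) and 8.85% in severe against sham cord (5.54% higher, 3.31% lower). With scaling by library size alone the severe calls turned from 740 higher and 443 lower to 443 higher and 2092 lower, and the median of all genes moved from -0.09 to -0.59. The 3 comparisons share both sham libraries.

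Of the complement genes, 12 of 14 were tested. In mild cord 1 rose and 1 fell, in moderate cord 1 fell and in severe cord 2 rose and 1 fell, and the list's median log2 fold changes were -0.01, -0.22 and 0.31 beside -0.02, 0.02 and -0.09 over all genes. C3, the central component, had 142 and 126 CPM in sham, 13.9 and 7.83 in mild, 10.7 and 4.23 in moderate, and 5.33 and 7.40 CPM in severe cord. All injured libraries lay far below sham. It fell in all 3 comparisons, with log2 fold changes of -3.51 (SE 0.49), -4.08 (SE 0.51) and -3.87 (SE 0.51) and edgeR adjusted p of 0.018, 0.018 and 0.00704. C5ar1, the receptor of the C5a fragment, had 110 and 62.0 CPM in sham, 254 and 161 in mild, 125 and 170 in moderate, and 243 and 166 CPM in severe cord. Both sham libraries lay below all injured ones. It rose in mild (log2 fold change 1.42, SE 0.33, edgeR adjusted p = 0.0452) and severe cord (1.78, SE 0.33, adjusted p = 0.0215), and in moderate cord its log2 fold change was 0.89 with an adjusted p of 0.163. Cfb, factor B of the alternative pathway, rose in severe cord by 2.79 (SE 0.69, edgeR adjusted p = 0.045) from at most 1.83 CPM in sham to 8.70 and 4.63 CPM, and its symbol belongs to more than 1 row of the gene list. In the comparison of cells, C5ar1 was higher in Rgcc cells by 0.60 and Cd59, an inhibitor of the membrane attack complex, by 0.58, each in 7 of 7 libraries.

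Of the TGF-beta/Smad genes, 20 of 21 were tested. In mild cord 1 rose and 1 fell, in moderate cord none was called, and in severe cord 2 rose, with medians of -0.45, 0.11 and -0.12. In moderate cord the count at an unadjusted p under 0.05 over all genes was 3061, and DESeq2 called 1394 genes. Id3, a target that inhibits differentiation factors, had 8.28 and 3.39 CPM in sham, 64.5 and 24.2 in mild, 36.0 and 26.5 in moderate, and 153 and 58.1 CPM in severe cord. It rose by 3.15 (SE 0.63, edgeR adjusted p = 0.0313) in mild and by 4.77 (SE 0.67, adjusted p = 0.00874) in severe cord on the log2 scale. Smad4, the shared partner of the receptor Smads, fell in mild cord by 1.22 (SE 0.29, edgeR adjusted p = 0.0478), and Acvrl1, a receptor of the family, rose in severe cord by 1.35 (SE 0.29, adjusted p = 0.0307). Both were low, between 2.76 and 9.18 CPM.

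The mitotic kinases and cyclins, the known binding partners of the Rgcc protein among them, gave no call in any comparison over 11 of 12 genes. Their median log2 fold changes were 0.69, 0.34 and -0.01. The highest of them were Mki67, with 53.6 and 83.9 CPM in sham, 128 and 162 in mild, 118 and 132 in moderate, and 23.8 and 51.0 CPM in severe cord, and Top2a, the topoisomerase of dividing cells. The levels of Cdk1 were 28.1 and 46.5 CPM in sham and 21.5 to 39.9 CPM in injured libraries, so the groups overlapped. Of the 11, Mki67 and Top2a were abundant enough to be compared between cells, and they were lower in Rgcc cells in 7 of 7 libraries each, with differences of -1.46 and -1.93.

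All 12 genes of p53 and growth arrest were tested. In mild and in moderate cord 1 rose, and in severe cord 2 rose, with medians of 0.28, 0.82 and 0.78. Gadd45b, a stress-induced growth arrest gene, had 78.3 and 123 CPM in sham, 166 and 149 in mild, 304 and 599 in moderate, and 938 and 825 CPM in severe cord. Its libraries were in the order of the drop height without overlap between groups. It rose in moderate (2.19, SE 0.42, edgeR adjusted p = 0.0426) and severe cord (3.59, SE 0.44, adjusted p = 0.00562). Cdkn1a, the cell cycle inhibitor p21, had 44.8 and 32.7 CPM in sham, 27.7 and 27.1 in mild, 61.6 and 127 in moderate, and 218 and 143 CPM in severe cord, and rose in severe cord by 2.73 (SE 0.37, edgeR adjusted p = 0.00747). Ccng1, a cyclin induced by p53, rose in mild cord by 1.34 (SE 0.22, edgeR adjusted p = 0.0219), and had 73.0 and 60.8 CPM in severe against 79.5 and 67.5 CPM in sham libraries. In contrast to their patterns over groups, Gadd45b and Cdkn1a differed between cells with and without Rgcc by 0.03 and -0.26, with 5 and 1 of 7 libraries higher.

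Of a list of G1 cyclins and related regulators, 9 of 10 were tested, and Sirt1 was not analysed here. None was called in mild or moderate cord, and 2 fell in severe cord, with medians of 0.09, -0.10 and -0.82. Ccne2, a cyclin of the G1/S step, had 13.1 and 5.17 CPM in sham and 1.12 and 1.93 CPM in severe cord, and fell by 1.94 on the log2 scale (SE 0.45, edgeR adjusted p = 0.0389).

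All 12 hypoxia genes were tested, and 1 rose in mild, 1 in moderate and 4 in severe cord, with medians of 1.05, 0.95 and 1.61. Pfkfb3, an activator of glycolysis, had 15.1 and 4.03 CPM in sham and 33.8 to 65.4 CPM in injured libraries. It rose by 2.40 (SE 0.50), 2.69 (SE 0.50) and 2.71 (SE 0.51), with edgeR adjusted p of 0.0345, 0.0422 and 0.0214. Vegfa, the growth factor of blood vessels, had 15.8 and 3.48 CPM in sham, 39.6 and 18.2 in mild, 45.4 and 75.0 in moderate, and 284 and 98.6 CPM in severe cord, and rose in severe cord by 4.95 (SE 0.80, edgeR adjusted p = 0.0138). The peptide hormone gene Adm rose in severe cord by 2.63 (SE 0.62, edgeR adjusted p = 0.0398). The fourth was Ndrg1 (2.37, SE 0.52, adjusted p = 0.034), which is named only because the count is small. Between cells, Bnip3, a mitophagy receptor, was higher in Rgcc cells by 0.90, the lactate dehydrogenase Ldha by 0.64 and the oxidoreductase Ero1a by 0.53, each in 7 of 7 libraries, and Vegfa by 0.69 in 6 of 7.

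Calls on these lists rested on 2 libraries per group. Of the 21 calls followed through the alternatives, Ndrg1 not among them, 3 held under all 17 alternatives run, Id3, Gadd45b and Cdkn1a in severe cord. Each of the others was lost in at least 1, and no direction turned. The mild and moderate calls were among those lost when only the 2 groups compared were in the fit.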

How the data were processed

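The authors deposited, for each of 8 libraries, raw UMI counts per gene and cell from Cell Ranger (build Rnor_6.0, per the labels; the file headers name version 5.0.1, and the study's methods another). The values are counts without normalization. Cells with over 10% mitochondrial UMIs, the 7.7% with the highest Scrublet doublet scores (scanpy 1.11.5), and cells over 2 SD from their library's mean UMIs or genes were removed. Each cell took the type whose 5 highest scaled markers scored best (at least 0.25, and the second type at most 0.8 times that). Of 182 markers, 171 were used. A planned gate on Vcan, Fn1 and Ccr2 was run without Ccr2, which was not analysed here. Levels are UMIs summed over cells per 1000000 UMIs (CPM). Shares were also computed after thinning cells to 1000 UMIs. Intervals of shares cover counting error only.

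Summed counts per library were tested by edgeR 4.0.16 (R 4.3.3, TMM, filterByExpr, quasi-likelihood, 4 groups in 1 fit), with DESeq2 1.42.0 as an alternative. The procedure was tested on simulated counts. Whether the libraries of a group were prepared separately is not given, so p-values measure the spread between libraries. Rgcc, the gates and the gene lists were chosen with earlier results of these data known. Named were, per list, the 3 called members with the largest fold change (or the 2 of highest level where none was called), the 10 genes most like Rgcc by each measure, and the 10 with the largest difference between cells with and without it. The result of 1 gene is not reported here, and counts include it.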

Additional observations from a re-analysis of the deposited data

Results flagged for a closer look

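The difference in Rgcc between macrophages/microglia inside and outside the Cxcl1 gate ran in opposite directions between groups. Inside minus outside, on the scale of log2(CPM + 1), it averaged -0.85 in mild and -0.48 in moderate cord, with both libraries of each group lower inside. It averaged 0.50 in severe cord, with both libraries higher inside. The difference between the groups was not tested. The share of cells inside the gate also differed, from 24.2% to 30.3% in mild and moderate libraries to 61.6% and 75.3% in severe ones, and its part in the result was not tested. When C1q-low cells were taken alone, the Cxcl1 cells were higher in both mild libraries (719 against 631 CPM and 599 against 414 CPM), in moderate replicate 1 (657 against 611 CPM) and in both severe libraries (1263 against 926 CPM and 1500 against 857 CPM), and lower in moderate replicate 2 (1651 against 1872 CPM). Among C1q-high cells alone the opposite directions remained. There the Cxcl1 cells were lower in both mild libraries (26.7 against 45.2 CPM and 26.8 against 37.2 CPM). They were also lower in both moderate libraries (70.6 against 98.1 CPM and 155 against 196 CPM). In both severe libraries they were higher (163 against 141 CPM and 126 against 104 CPM).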

How the results depend on the processing

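The counts of called genes depended on the fit. Against 926, 328 and 1183 genes in mild, moderate and severe cord, DESeq2 called 2235, 1394 and 2353, and no filter on low counts gave 2322, 1712 and 2505. Scaling by library size alone gave 2535 in severe cord, and clusters in place of the gate gave 160 in moderate cord. With only the 2 groups compared in the fit, edgeR called 0, 0 and 139 genes, while 3129, 2096 and 2435 had an unadjusted p under 0.05. Leaving out each library in turn gave 0 to 1952 genes in mild, 5 to 1327 in moderate and 169 to 1883 in severe cord. Without either mild library the mild count was 0, without moderate replicate 2 the moderate count was 5, without severe replicate 1 the severe count was 169, and without sham replicate 1 the counts were 1952, 1327 and 1881. Leaving out any 1 of the 8 libraries moved at least 1 of the 3 counts by over 1.5 times. The cause of these changes was not tested beyond the smaller number of libraries. With the replicate number as a block, 363, 132 and 733 genes were called. The labels do not say whether the numbers pair the libraries. Over 13364 genes, deviations of same-numbered libraries from their group means correlated at 0.23 (sham, mild), 0.05 (sham, severe) and 0.28 (mild, severe). With moderate libraries they correlated at -0.24 (sham), -0.18 (mild) and -0.32 (severe). The signs turn if the numbers of a group are exchanged, so these values cannot show whether libraries of different groups were prepared together.

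The log2 fold change of Rgcc was positive in every fit. Its severe level of 809 CPM became 1016 with TMM scaling and 676 as a mean over cells, both beyond the spread of its 2 libraries. Leaving out 1 of the 2 libraries of a group leaves the value of the other. That was 11.3 or 24.8 CPM in sham, 184 or 366 in mild, 326 or 1054 in moderate and 774 or 843 in severe cord. Either of 2 values always lies within 1 SD of their mean, so this alternative could not leave the spread. Thinning to 500 UMIs gave shares of 0.842% in sham and 18.7% in severe cord, and thinning to 2000 UMIs gave 2.17% in sham, 25.1% in mild and 37.2% in severe cord. At 4 times the Mki67 threshold the difference was -2.64. All other alternatives for levels by group, type and state stayed within the spread. For levels by type this says little, because the spread over libraries takes in all injury groups (448 ± 395 CPM in macrophages/microglia).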
